A study of Mus musculus with 16 samples.

Results

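The 4 genes described here encode the cytochrome P450 enzymes that place the hydroxyl groups of the main mouse bile acids. They are Cyp7a1 (ENSMUSG00000028240), Cyp8b1 (ENSMUSG00000050445), Cyp27a1 (ENSMUSG00000026170) and Cyp2c70 (ENSMUSG00000060613). They were chosen by name, as the enzymes of 7alpha-, 12alpha-, 27- and 6beta-hydroxylation, and all 4 were present among the 13006 genes of the deposited table and among the 12918 that passed a filter on low counts. Messenger RNA was measured by poly(A) sequencing of whole liver from mice. The strain name is Humanized PXR-CAR-CYP3A4/3A7, that is, with the human nuclear receptors PXR and CAR together with human CYP3A drug-metabolising enzymes. All 16 libraries carry this genotype, so no group shows the response of ordinary mice. The 4 vehicle libraries (CV) received propylene glycol. The 4 CM libraries received the CAR ligand MI763F at 2.5 mg/kg by mouth for 6 days from day 2, the 4 EV libraries received ethinylestradiol (EE), a synthetic estrogen used to induce cholestasis, at 10 mg/kg under the skin for 7 days, and the 4 EM libraries received both. Whether CV and EV mice were also gavaged with the oral vehicle of the ligand is not given in the labels. Nor is each library tied to an animal of its own, so the p-values describe spread among libraries, which may be technical.

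Bile acids are made from cholesterol in hepatocytes. In the classical pathway Cyp7a1, an enzyme of the endoplasmic reticulum, adds the first hydroxyl group and sets the rate of synthesis, and Cyp8b1 adds the 12alpha-hydroxyl group that makes cholic acid instead of chenodeoxycholic acid. The mitochondrial enzyme Cyp27a1 oxidises the side chain in both the classical and the alternative pathway, and in mice Cyp2c70 adds the 6beta-hydroxyl group of the muricholic acids, which human bile lacks. Cyp7a1 and Cyp8b1 are known for feedback repression by bile acids through the receptor FXR (Nr1h4), its target SHP (Nr0b2) and intestinal FGF acting on Fgfr4 and Klb, and Cyp7a1 also for a daily rhythm.

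Library totals ran from 14115384 to 21473227 estimated counts. Levels are given as CPM, counts scaled to a common library size with TMM, which corrects for a shift in overall RNA composition. TMM gave every EE library a factor above 1 (1.1 to 1.23) and every other library one below 1 (0.833 to 0.91). If library totals alone are used, the median of all genes moves by 0.49 on the log2 scale in EV vs CV and by -0.11 in EM vs EV, and 84.1% instead of 50.5% of the EV vs CV calls are rises. The libraries showed a hepatocyte profile throughout. The 12 hepatocyte markers, Alb among them, summed to 148000 to 180000 CPM in CV and to 60900 to 73000 CPM in EV.

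In vehicle-treated mice the 4 messages fell into a high and a low pair when set per length of exon. Cyp2c70 stood at 337 ± 64 CPM per kb and Cyp27a1 at 301 ± 42 CPM per kb (SD, n = 4). Cyp8b1 stood at 52.5 ± 15 and Cyp7a1, the pacemaker of the classical pathway, was the lowest at 14.9 ± 3 CPM per kb. The ranges of Cyp2c70 (243 to 382 CPM per kb) and Cyp27a1 (259 to 358) overlapped, whereas those of Cyp8b1 (39.3 to 73.7) and Cyp7a1 (11.1 to 18.4) stood apart from each other and from the high pair. The deposited counts appear already rescaled by gene length, so this division may correct for length again. Without it, Cyp8b1 at 76.5 to 144 CPM and Cyp7a1 at 46.3 to 76.7 CPM overlapped in CV.

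**Figure D1:**
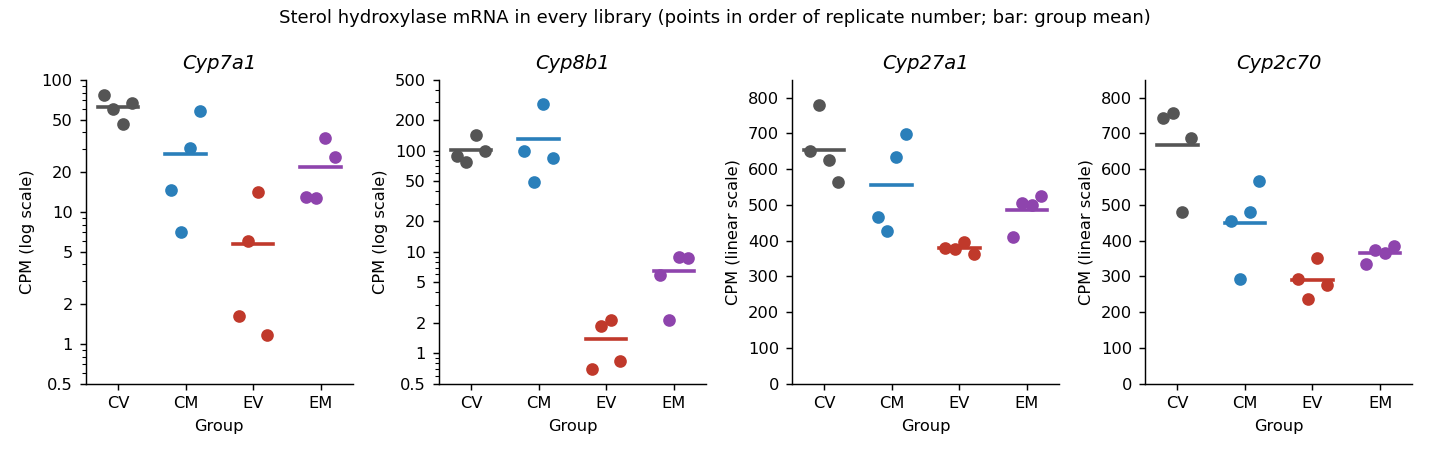
Level of each sterol hydroxylase in CPM (y axis, log scale for Cyp7a1 and Cyp8b1, linear scale from 0 for Cyp27a1 and Cyp2c70) in the 4 groups (x axis); each point is 1 library, in order of replicate number, and each bar is the group mean. In every panel the 4 EV points lie below the 4 CV points, and for Cyp7a1 and Cyp8b1 the points of CM, EV and EM are spread over a wider range of folds than those of CV.

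EE alone lowered all 4 messages, those of Cyp8b1 and Cyp7a1 to a small remainder and those of Cyp27a1 and Cyp2c70 to about the middle of their vehicle level. All 4 passed as lower by edgeR's quasi-likelihood test, against a background of 24.9% of all genes called lower in EV vs CV. All 4 also had CV and EV ranges that did not overlap, which 22.7% of genes showed in the same direction. The median log2 fold change of the 4 was -2.33, beside 0 over all genes tested.

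Cyp8b1, the 12alpha-hydroxylase, stood at 89, 76.5, 144 and 100 CPM in CV replicates 1 to 4. It stood at 0.696, 1.85, 2.11 and 0.84 CPM in the EV libraries, which rest on 15, 38, 35 and 16 estimated counts. Every EV library was far below the lowest CV library, and the EV mean was 1.34% of the CV mean. The log2 fold change was -6.23 ± 0.67 (SE; 95% interval -7.69 to -4.78), with an adjusted p of 4.87e-06 from edgeR's quasi-likelihood test. The low counts in EV make the size of this fold less certain than its direction.

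Cyp7a1 stood at 76.7, 60.4, 46.3 and 66.2 CPM in CV. In EV it stood at 1.62, 5.98, 14.1 and 1.16 CPM, a 12.2-fold spread within the group against 1.66-fold in CV. EV replicate 3 was the highest EV library and still lay below every CV library. The mean in EV was 9.15% of that in CV, and the log2 fold change was -3.47 ± 0.78 (SE; adjusted p = 0.00218 from edgeR's quasi-likelihood test). Leaving out any 1 library gave between -4.42 and -3.14.

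Cyp27a1, the side chain oxidase, stood at 651, 779, 626 and 563 CPM in CV and at 379, 377, 396 and 363 CPM in EV. The EV libraries were almost level with one another, at a coefficient of variation of 3.61%, and all lay below the lowest CV library. The log2 fold change was -0.79 ± 0.15 (SE; edgeR adjusted p = 0.000363). This call rests on the composition scaling: with library totals the value was -0.30 (edgeR adjusted p = 0.0774).

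Cyp2c70, the muricholic acid enzyme, stood at 744, 756, 481 and 688 CPM in CV and at 293, 237, 352 and 276 CPM in EV. CV replicate 3 was the lowest vehicle library and EV replicate 3 the highest EE library, and the ranges did not meet. The log2 fold change was -1.20 ± 0.18 (SE; edgeR adjusted p = 6.7e-05), and with library totals it was -0.72 and still passed (edgeR adjusted p = 0.00267). Cyp2c genes are many and alike in sequence, and how reads were shared out between them is uncertain.

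These falls came in bulk liver, where fewer hepatocytes and less RNA per hepatocyte cannot be told apart. Of the 12 hepatocyte markers 9 fell and 0 rose in EV vs CV, with a median log2 fold change of -1.5, beside 24.9% of all genes called lower. Macrophage markers moved the other way: 11 of 13 rose, beside 25.5% of all genes called higher, and their sum was 335 to 841 CPM in CV and 2040 to 2420 CPM in EV. Summed levels in CV and EV were 48 to 62.7 and 137 to 203 CPM for the 5 measured cholangiocyte markers, 133 to 299 and 322 to 357 CPM for 11 endothelial markers, 181 to 335 and 200 to 220 CPM for 10 stellate markers, and 11.3 to 27.8 and 78.3 to 159 CPM for 8 lymphocyte and neutrophil markers. Of these lists, 2 of 5 cholangiocyte, 5 of 11 endothelial and 5 of 8 lymphocyte and neutrophil markers rose and 0 fell. Of the 10 stellate markers 3 rose, the collagens Col1a1 (1.48 on the log2 scale), Col1a2 (0.82) and Col3a1 (0.72), and 1 fell, Dcn (-0.56), which alone gave 182 CPM in CV and 124 CPM in EV. No measured marker was at 0 in any library, and the part of these shifts in the falls of the 4 hydroxylases was not tested.

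The fitted falls differed in size between the 4 genes. No difference between 2 of them passed after adjustment, but 4 against 4 libraries left the test almost no room to pass. The log2 difference between Cyp8b1 and Cyp27a1 went from -2.71 ± 0.52 in CV to -8.12 ± 0.7 in EV (SD, n = 4), a change of -5.42 (two-sided exact permutation test, p = 0.0286, adjusted p = 0.0686 over 12 pair tests). The log2 difference of Cyp7a1 minus Cyp8b1 changed by 2.15 (exact permutation p = 0.0286, adjusted p = 0.0686). In EV vs CV, 5 of 6 pairs were at 0.0286, the smallest p that 4 against 4 allows. The exception was the pair of Cyp27a1 and Cyp2c70, whose difference changed by 0.42 (exact permutation p = 0.0857, adjusted p = 0.103). Even with all 6 pairs at the smallest p, none would pass over 12 tests unless a pair in EM vs EV reached it too. The adjusted values therefore do not show that the falls were alike.

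The same shift can be read as a balance between enzymes. Per length of exon, Cyp8b1 was 2.48, 2.71, 6.64 and 3.23 times Cyp7a1 in the CV libraries and 0.918, 0.663, 0.32 and 1.56 times in the EV libraries. Every EV library was therefore below every CV library in the ratio of 12alpha-hydroxylase to 7alpha-hydroxylase message. The division by length, which may repeat one already made, sets the size of these ratios but not their order across libraries. Cyp27a1 was 16.2 to 25.9 times Cyp7a1 in CV and 54 to 603 times in EV, again without overlap. The EV ratios rest on low counts, 22 to 233 for Cyp7a1 and 15 to 38 for Cyp8b1, so their size is uncertain.

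**Figure D2:**
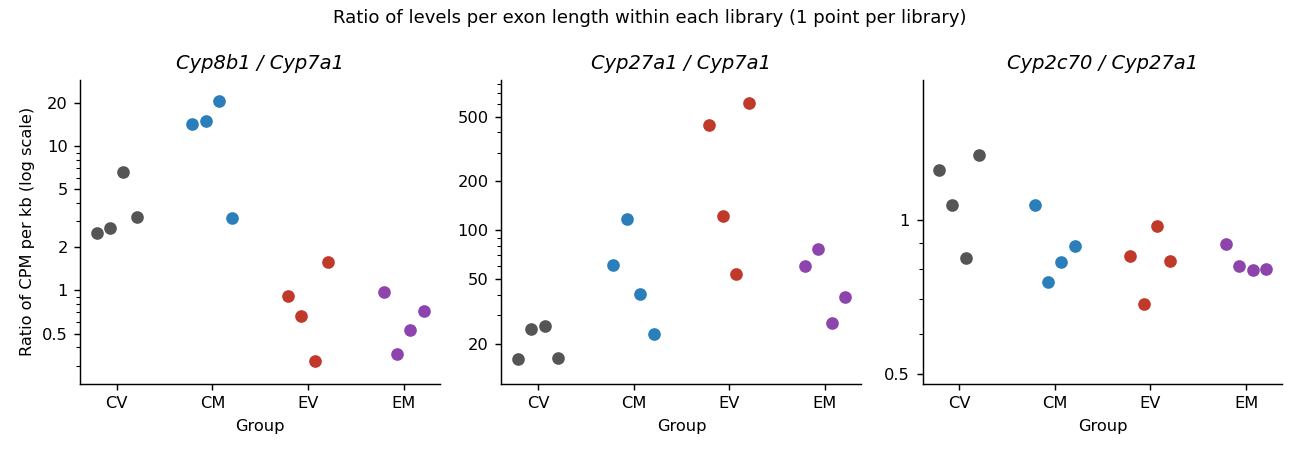
Ratio of the levels per kb of exon of 2 hydroxylases within each library (y axis, log scale) by group (x axis); each point is 1 library, in order of replicate number. The ratio of Cyp8b1 to Cyp7a1 is 2.48 to 6.64 in CV, 3.15 to 20.6 in CM and at most 1.56 in the 8 libraries with EE.

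The sequence just upstream of the genes is shown because Cyp8b1, which had the largest fitted fall, and Cyp2c70 share letters there. The RefSeq promoter table for GRCm38.p6, an earlier build than the GRCm39 that the submitters name, matched 3 of the 4 genes. The 250 bases before each transcription start are printed 5′ to 3′ on the strand of the gene. Capitals mark the letters CAAAGTCCA, known as a motif specific to the hepatocyte factor HNF4A, and CAAGGNCA, the core recognised by LRH-1 (Nr5a2); both factors are known activators of bile acid synthesis genes.
Cyp8b1, chr9:121916306-121916555, minus strand: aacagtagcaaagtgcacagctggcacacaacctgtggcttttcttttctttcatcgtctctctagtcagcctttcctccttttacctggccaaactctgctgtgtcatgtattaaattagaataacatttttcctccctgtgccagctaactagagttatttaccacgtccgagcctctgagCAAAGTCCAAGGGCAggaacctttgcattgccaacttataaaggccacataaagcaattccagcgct
Cyp2c70, chr19:40187287-40187536, minus strand: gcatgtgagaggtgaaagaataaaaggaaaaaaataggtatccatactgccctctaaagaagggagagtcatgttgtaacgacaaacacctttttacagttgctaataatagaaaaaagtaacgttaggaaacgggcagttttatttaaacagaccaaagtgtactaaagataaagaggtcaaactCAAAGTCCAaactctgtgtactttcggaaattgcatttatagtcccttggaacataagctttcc
Cyp27a1, chr1:74713285-74713534, plus strand: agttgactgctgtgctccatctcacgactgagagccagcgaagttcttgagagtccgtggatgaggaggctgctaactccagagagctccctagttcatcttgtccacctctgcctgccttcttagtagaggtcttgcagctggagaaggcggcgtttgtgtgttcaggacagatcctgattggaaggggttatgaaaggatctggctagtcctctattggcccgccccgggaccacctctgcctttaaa

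The letters CAAAGTCCA, searched on both strands, stand 67 to 59 bases before the start of Cyp8b1 and 64 to 56 bases before that of Cyp2c70, in the direction of the gene in both. They occur in 0.384% of 32851 windows of the same length. In Cyp8b1 they overlap the LRH-1 core, which stands 60 to 53 bases before the start and occurs in 5.53% of windows. The consensus FXR inverted repeat, the estrogen response element and the direct repeat known for LXR and CAR, searched on both strands, had no match in these windows and occur in 0.00609%, 0.0639% and 0.0152% of all windows. The letters TATAAA, in 12.4% of windows, stand 31 to 26 bases before the start of Cyp8b1 and, on the opposite strand, 29 to 24 bases before that of Cyp2c70. The GC content was 54% for Cyp27a1, 44.8% for Cyp8b1 and 36% for Cyp2c70, beside a median of 52.4%. The motifs were chosen with these sequences in view, and a match is a description of letters, not of binding. The messages of both factors were called lower in EV vs CV, Nr5a2 at -1.04 on the log2 scale (edgeR adjusted p = 6.67e-06) and Hnf4a at -0.48 (adjusted p = 0.000168). With library totals Nr5a2 still passed (-0.56, edgeR adjusted p = 0.00155) and Hnf4a did not (0.01, adjusted p = 0.927). A difference between the 2 genes was not tested. Cyp27a1, whose window holds neither motif, was also called lower in EV vs CV, and Cyp7a1 had no window. The part of either factor in the falls of the hydroxylases was not tested.

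Without EE, none of the 4 genes passed the test for an effect of the ligand. By edgeR's quasi-likelihood test 0 of 4 were called in CM vs CV, where 0.0929% of all genes were called. An unadjusted p under 0.05 was found for 1 of 4, beside 1362 of the 12918 genes tested. DESeq2 called 0 of 4 and 221 genes in all, and limma called 0 of 4. Cyp7a1 stood at 14.7, 6.99, 30.2 and 58.2 CPM in CM replicates 1 to 4, against 46.3 to 76.7 CPM in CV. Thus 3 of the 4 CM libraries lay below all CV libraries and the other lay within their range. The log2 fold change was -1.18 ± 0.70 (SE; 95% interval -2.69 to 0.34; edgeR adjusted p = 0.606). That interval holds both no change and falls well beyond the fitted value, and leaving out 1 library gave from -1.86 (without CM replicate 4) to -0.85 (without CM replicate 2).

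Cyp8b1 stood at 98.4, 48.7, 291 and 85.3 CPM in CM, so that replicate 3 was above and replicate 2 below every CV library. Its log2 fold change was 0.35 ± 0.50 (SE; edgeR adjusted p = 0.872), and the sign turned to -0.40 without CM replicate 3. Cyp2c70 was lower by 0.57 ± 0.18 on the log2 scale (edgeR adjusted p = 0.267, unadjusted p = 0.00675), at 455, 293, 479 and 567 CPM. Cyp27a1 stood at 467, 426, 635 and 698 CPM and differed by -0.23 ± 0.15 on the log2 scale (edgeR adjusted p = 0.617). Within CM, replicate 2 was the lowest library for all 4 genes, and replicate 4 was the highest for Cyp7a1, Cyp27a1 and Cyp2c70 but not for Cyp8b1. The ratio of Cyp8b1 to Cyp7a1 per length was 14.3, 15, 20.6 and 3.15 in CM, so 3 of 4 libraries exceeded the highest vehicle value of 6.64.

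The CM libraries also differed among themselves in clock genes. Dbp, a transcription factor with a strong daily rhythm and a known activator of Cyp7a1, stood at 58.7, 5, 2.93 and 129 CPM in CM replicates 1 to 4 and at 64.6 to 162 CPM in CV. Npas2, which peaks in another part of the day, stood at 0.902, 6.67, 7.56 and 0.315 CPM in CM and at 0.177 to 1.37 CPM in CV. CM replicate 4 lay within the vehicle range in both clock genes and in Cyp7a1, while CM replicates 2 and 3 were low in Dbp and high in Npas2. CM replicate 1, with Dbp just below the vehicle range and Npas2 within it, had 14.7 CPM of Cyp7a1. CM replicate 3, which had the lowest Dbp, had 30.2 CPM of Cyp7a1. The labels used here give no time of day for tissue collection. Without CM replicates 2 and 3, a choice made after these values were seen, the log2 fold change of Cyp7a1 in CM vs CV was -0.77 (edgeR adjusted p = 0.883) and that of Cyp8b1 was -0.16 (edgeR adjusted p = 0.979). The part of the clock genes in the spread of Cyp7a1 was not tested.

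The EE libraries likewise had a low Dbp and a high Npas2. Of 17 measured clock and clock output genes, 11 fell and 2 rose in EV vs CV, where 24.9% of all genes were called lower and 25.5% higher, and the median log2 fold change was -1.13. Dbp stood at 9.6, 12.7, 20.9 and 4.36 CPM in EV replicates 1 to 4, and Npas2 at 3.36 to 7.67 CPM. The order of the EV libraries by Dbp was that by Cyp7a1, but the orders differed in CV, CM and EM, and CV replicate 1 had the lowest Dbp (64.6 CPM) and the highest Cyp7a1 (76.7 CPM) of its group. Nr0b2, the repressor SHP, stood at 54.2, 37.8, 32.7 and 78.6 CPM in EV, the reverse of the order of Cyp7a1, whereas in CV both genes were highest in replicate 1 and lowest in replicate 3. Between groups Nr0b2 did not pass (-0.05 on the log2 scale in EV vs CV, edgeR adjusted p = 0.918), and it ranged from 26.6 to 77.8 CPM in CV. In EM vs EV edgeR called 0 of the 17 clock genes, beside 1.69% of all genes, and Dbp stood at 9.03 to 17 CPM in EM. Time of collection and EE cannot be told apart here. The part of the clock genes or of Nr0b2 in the fall of Cyp7a1 was not tested.

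**Figure D3:**
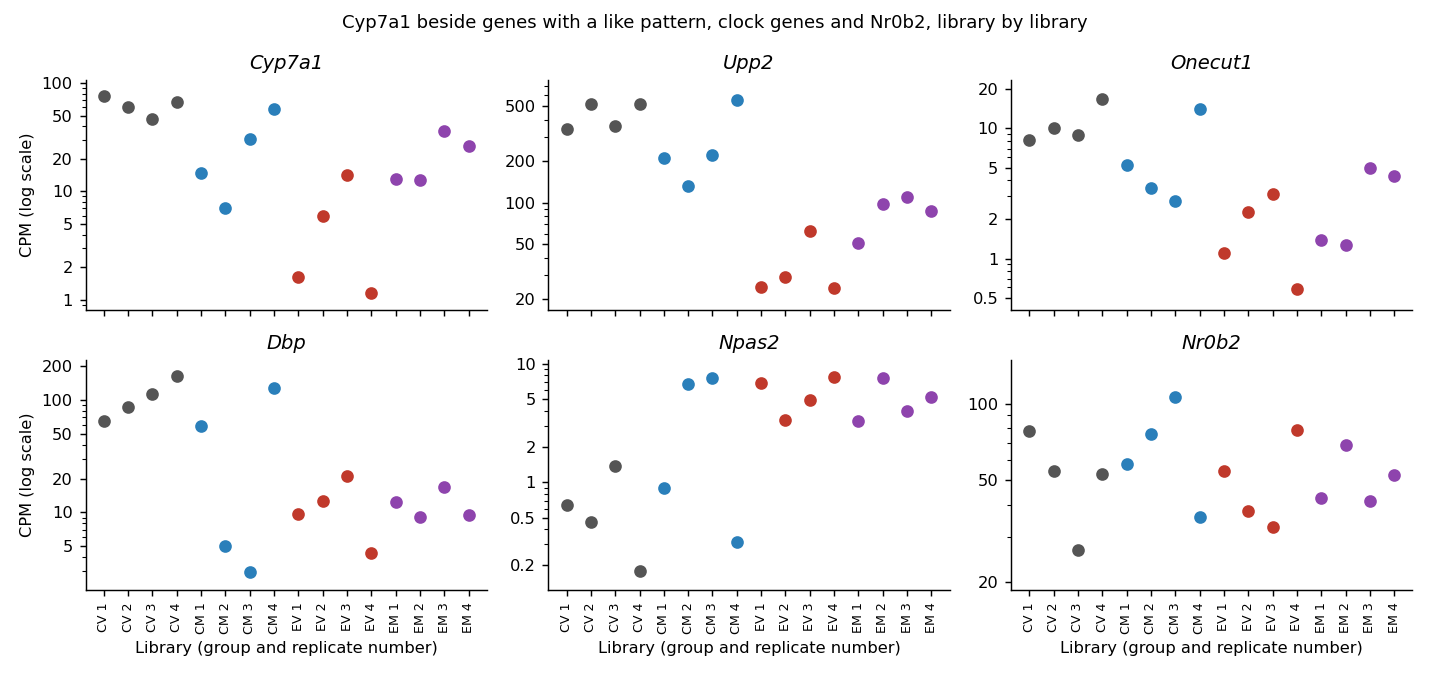
Level in CPM (y axis, log scale) of Cyp7a1, of Upp2 and Onecut1, whose patterns are near it, of the clock genes Dbp and Npas2, and of Nr0b2 (SHP), in each of the 16 libraries (x axis, group and replicate number); each point is 1 library and colours mark the groups. CM replicate 4 lies within the CV range for Cyp7a1, Onecut1, Dbp and Npas2 and above it for Upp2 (557 against at most 520 CPM), while CM replicates 2 and 3 have Dbp at 5 and 2.93 CPM.

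In EE mice given the ligand, all 4 messages had higher means than with EE alone, and none passed the test. By edgeR's quasi-likelihood test 0 of 4 were called in EM vs EV, beside 1.69% of all genes. An unadjusted p under 0.05 was found for 3 of 4, beside 1642 of the 12918 genes tested. DESeq2 called 1 of 4 and 559 genes in all, and limma called 0 of 4. Ranges did not overlap for 2 of the 4, Cyp8b1 and Cyp27a1, where 6.56% of all genes lay higher in EM without overlap. The median log2 fold change of the 4 was 1.17, beside 0 over all genes.

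Cyp8b1 stood at 5.93, 2.13, 8.93 and 8.7 CPM in EM, against at most 2.11 CPM in EV. EM replicate 2 only just cleared the highest EV library, and the other 3 were well above it. The log2 fold change was 2.25 ± 0.65 (SE; 95% interval 0.86 to 3.65; edgeR adjusted p = 0.111). DESeq2 called this rise (2.23, adjusted p = 0.00584), and edgeR did so without CM replicate 3 (2.25, adjusted p = 0.039), the library with the highest Cyp8b1. The EM mean was still only 6.28% of the CV mean.

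Cyp7a1 stood at 13, 12.7, 36 and 26.2 CPM in EM. Replicates 3 and 4 lay above every EV library, while replicates 1 and 2 lay below the highest EV value of 14.1 CPM. The log2 fold change was 1.97 ± 0.75 (SE; 95% interval 0.35 to 3.58; edgeR adjusted p = 0.263), and the EM mean was 35.2% of the CV mean. Cyp27a1 stood at 409, 506, 501 and 526 CPM in EM, all above the highest EV library at 396 CPM, with a log2 fold change of 0.36 ± 0.15 (SE; edgeR adjusted p = 0.295). Cyp2c70 stood at 334, 374, 365 and 384 CPM, which overlapped EV, with a log2 fold change of 0.33 ± 0.18 (SE; edgeR adjusted p = 0.484). When the ligand was added to EE, no pair of the 4 genes passed the exact permutation test for a difference in response, before or after adjustment. The nearest pair, Cyp27a1 and Cyp2c70, changed by 0.01 relative to each other (exact permutation p = 1, adjusted p = 1).

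With both treatments the genes ended below vehicle. In EM vs CV, which shares its control libraries with EV vs CV, 3 of 4 passed as lower, where 20% of all genes were called lower, and the ranges of all 4 lay below CV, as for 18.1% of all genes. Cyp8b1 was lower by 3.98 ± 0.58 on the log2 scale (edgeR adjusted p = 0.000113) and Cyp2c70 by 0.87 ± 0.18 (edgeR adjusted p = 0.00142). Cyp27a1 changed by -0.43 ± 0.15 (edgeR adjusted p = 0.0271), which no longer passed with library totals (-0.05), without CV replicate 2 (adjusted p = 0.0918) or without EM replicate 1 (adjusted p = 0.0855). Cyp7a1 at -1.5 ± 0.71 did not pass (edgeR adjusted p = 0.109), although a fit of these 8 libraries alone called it (-1.51, adjusted p = 0.00895).

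Among ligand-treated mice only Cyp8b1 passed for an effect of EE. In EM vs CM it was lower by 4.33 ± 0.59 on the log2 scale (edgeR adjusted p = 7.24e-05), and 18.6% of all genes were called lower. Cyp7a1 (-0.33 ± 0.70, edgeR adjusted p = 0.751), Cyp27a1 (-0.20 ± 0.15, adjusted p = 0.31) and Cyp2c70 (-0.30 ± 0.18, adjusted p = 0.214) did not pass, and with library totals their signs turned (0.03, 0.17 and 0.07). Without CM replicate 2 Cyp2c70 did pass (-0.46, edgeR adjusted p = 0.0301). Thus the order of the group means was CV, CM, EM, EV from high to low for Cyp7a1, Cyp27a1 and Cyp2c70, and no neighbours in that order differed by the test. For Cyp8b1 the order was CM, CV, EM, EV, and the step from CV to EM passed.

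The ligand effect with EE was set against that without EE by an interaction term. It was positive for all 4 genes, at 3.14 ± 1.0 for Cyp7a1, 1.90 ± 0.82 for Cyp8b1, 0.59 ± 0.21 for Cyp27a1 and 0.90 ± 0.26 for Cyp2c70 on the log2 scale. None passed over all genes (edgeR adjusted p = 0.187, 0.333, 0.207 and 0.136), where 0.132% of genes were called. All 4 had an unadjusted p under 0.05, as had 1759 of the 12918 genes tested. DESeq2 called 1 of 4, Cyp2c70 (adjusted p = 0.0274), and 450 genes in all, and limma called 0 of 4 and 30 genes in all. The interaction holds the CM libraries with the unlike clock genes, without 2 of which (CM replicates 2 and 3) it was 2.74 for Cyp7a1 (edgeR adjusted p = 0.412), 2.41 for Cyp8b1 (adjusted p = 0.197), 0.53 for Cyp27a1 (adjusted p = 0.376) and 0.72 for Cyp2c70 (adjusted p = 0.283).

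**Figure D4:**
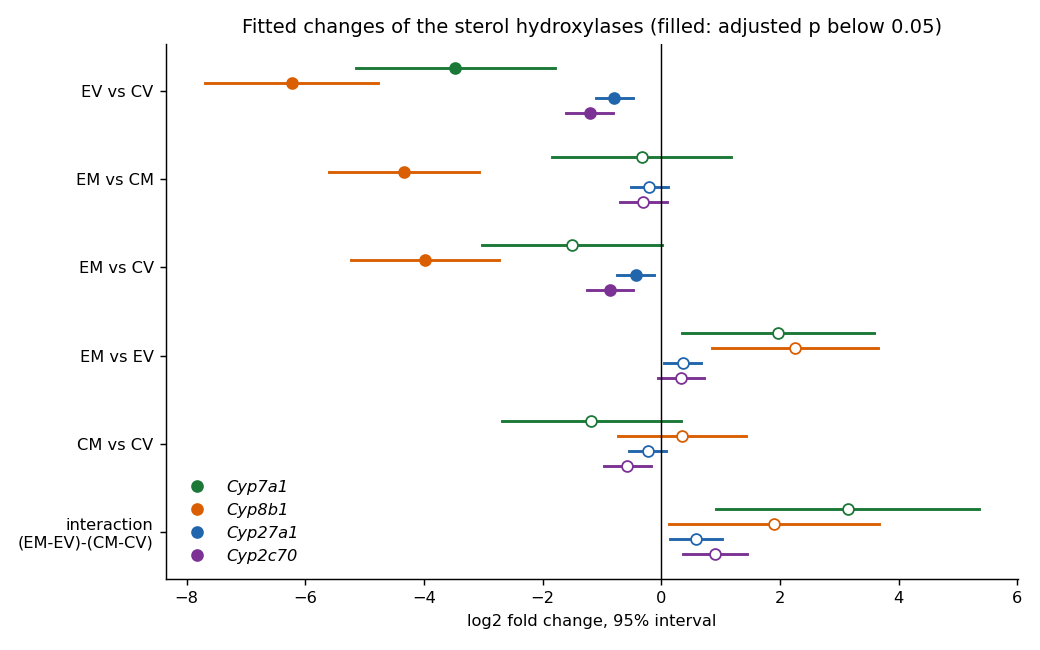
Fitted log2 fold change (x axis) with its 95% interval for each sterol hydroxylase (colour) in the 5 comparisons and the interaction (y axis); filled points have an edgeR adjusted p below 0.05. All 4 points are filled and negative in EV vs CV, and all 4 are positive and open in EM vs EV and in the interaction.

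The electron donors of these enzymes fell with EE as well. P450 reductase (Por), which serves the enzymes of the endoplasmic reticulum, went from 732 to 290 CPM (-1.34 on the log2 scale, edgeR adjusted p = 8.63e-07). Ferredoxin reductase (Fdxr) and ferredoxin (Fdx1), which pass electrons to mitochondrial P450s such as Cyp27a1, changed by -0.99 (edgeR adjusted p = 4.39e-05) and -0.65 (edgeR adjusted p = 0.00196). Cytochrome b5 (Cyb5a, -0.92), its mitochondrial form (Cyb5b, -0.93), its reductase (Cyb5r3, -0.92) and the second ferredoxin (Fdx1l, now Fdx2, -0.41) were also called, so that 7 of 7 fell, beside 24.9% of all genes. With library totals 4 of 7 did, without Cyb5b, Fdx1 and Fdx1l. That setting called 8377 genes, 84.1% of them as higher. Of the 7, Cyb5a alone rose in EM vs EV, from 1150 to 1620 CPM (0.49, edgeR adjusted p = 0.0208; background 1.51% called higher), and with library totals it did not pass (0.38, adjusted p = 0.0663). In CM vs CV 0 of 7 were called by edgeR, beside 0.0929% of all genes.

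The rest of the pathway did not all follow the 4 hydroxylases. Of the oxysterol and minor hydroxylases, Cyp7b1, which acts after Cyp27a1 in the alternative pathway, rose from 13.2 to 23.6 CPM over the CV libraries to 1250 to 1490 CPM over the EV libraries. Cyp39a1 fell from 38.4 to 62.9 CPM in CV to 2.43 to 4.52 CPM in EV, and Cyp46a1, a cholesterol 24-hydroxylase known mainly from brain, changed by -3.57 on the log2 scale (edgeR adjusted p = 0.000177). Cyp39a1 rose in EM vs EV (2.00, edgeR adjusted p = 0.00943), and Cyp46a1 did not pass (1.24, adjusted p = 0.421). Cyp7b1 changed by -0.62 there and just missed the threshold (edgeR adjusted p = 0.051), which it passed with library totals (-0.73, adjusted p = 0.0315).

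Among 13 enzymes of ring modification, side chain shortening and conjugation, 9 fell and 0 rose in EV vs CV, beside 24.9% of all genes called lower, and the median log2 fold change was -0.66. The falls included Slc27a5, the bile acid CoA ligase (-2.38), Akr1d1, the 5beta-reductase (-1.68), Hsd3b7, the oxidoreductase that follows Cyp7a1 (-1.04), and Baat, the conjugating enzyme (-1.07). The 4 that did not pass were Acox2 (0.33, edgeR adjusted p = 0.0809), Hsd17b4 (-0.18, adjusted p = 0.199), Acot8 (0.29, adjusted p = 0.123) and Akr1c14 (-0.49, adjusted p = 0.0742). With library totals Acox2, Hsd17b4 and Acot8 were called higher, as were 84.1% of the 8377 genes called under that setting. With the ligand added to EE 2 of the 13 rose, beside 1.51% of all genes, namely Akr1c6 (0.80, edgeR adjusted p = 0.0262) and Slc27a5 (0.62, adjusted p = 0.0402), and with library totals 0.

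**Figure D5:**
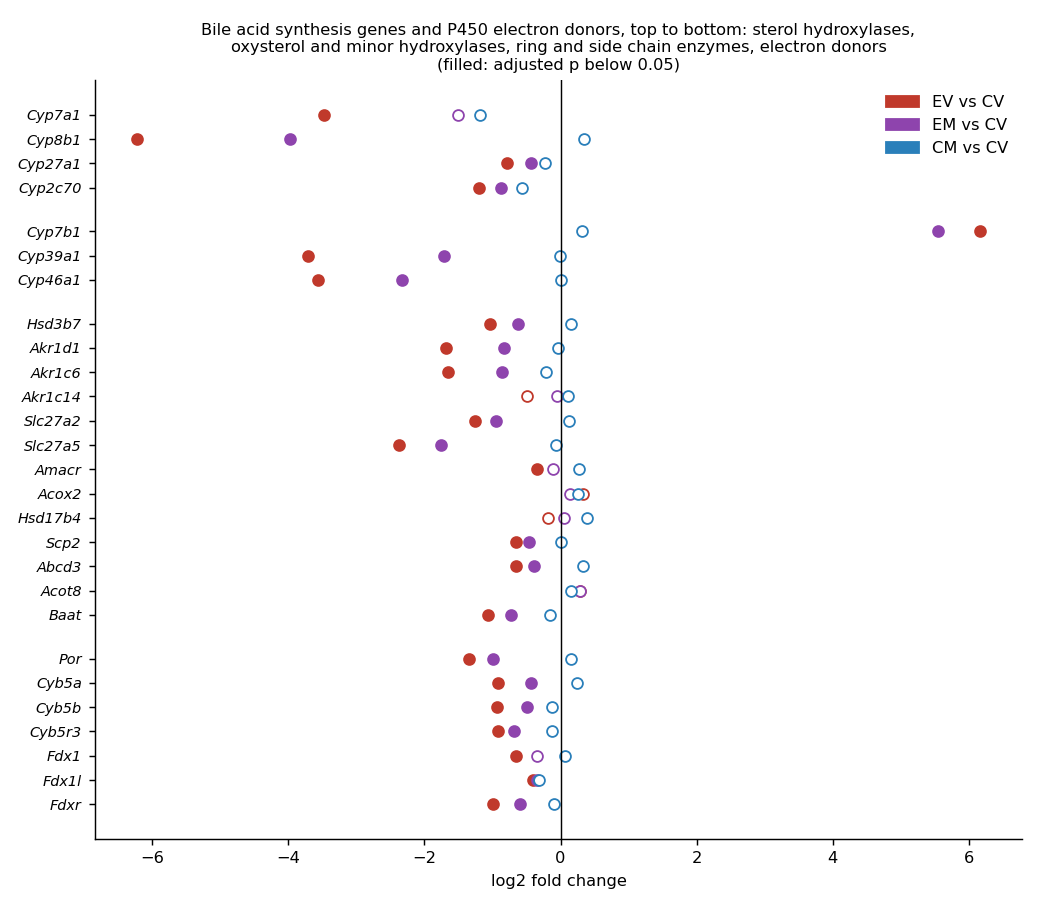
Log2 fold change (x axis) in EV vs CV, EM vs CV and CM vs CV for the 4 sterol hydroxylases and, below them, 3 other groups of genes (y axis); filled points have an edgeR adjusted p below 0.05. Cyp7b1 lies at 6.17 in EV vs CV, opposite to Cyp8b1 at -6.23, and no point of CM vs CV is filled.

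Of 20 regulators known to act on Cyp7a1 or Cyp8b1, 13 fell and 0 rose with EE, beside 24.9% of all genes called lower, with a median log2 fold change of -0.73. They included the FGF receptor pair Fgfr4 (-1.13) and Klb (-1.46), Onecut1 (-2.63), Cebpa (-1.63) and the coactivator Ppargc1a (-1.76), which activate hepatocyte genes, and FXR itself (Nr1h4, -0.74). With library totals, where 8377 genes were called and 84.1% of them were higher, 8 fell and 3 rose. Nr1h4 (-0.26, edgeR adjusted p = 0.0987) then no longer passed. The LXR gene Nr1h3 (-0.05, edgeR adjusted p = 0.606) and Foxo1 (0.07, adjusted p = 0.602) did not pass in EV vs CV, but were called higher with library totals (0.43 and 0.55). By edgeR 0 of the 20 were called in CM vs CV, beside 0.0929% of all genes, and 0 in EM vs EV, beside 1.69%. With so few genes called, these counts do not show that the regulators were unchanged. Of 5 measured FXR targets 3 fell with EE, beside 24.9% of all genes, the bile salt pump Abcb11 (-1.32), Abcb4 (-0.48) and Mafg (-0.73), and with library totals 1 fell and 1 rose. Of 8 LXR targets 5 fell, against the same background, led by Scd1 (-5.51) and Srebf1 (-1.55), and Abca1 rose (0.56).

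Other Cyp2c genes gave a measure of how Cyp2c70 stands in its family. Of 13 measured, 10 fell and 1 rose in EV vs CV, where 24.9% of all genes were called lower and 25.5% higher, and the median log2 fold change was -1.86, beside -1.20 for Cyp2c70. Cyp2c23 (-3.88) and Cyp2c37 (-3.93) were among the falls. With the ligand added to EE, Cyp2c37 (2.12, edgeR adjusted p = 0.000314), Cyp2c50 (2.00, adjusted p = 0.00235) and Cyp2c54 (2.08, adjusted p = 0.0404) rose, 3 of 13 beside 1.51% of all genes, while Cyp2c70 at 0.33 did not pass. With library totals the rise of Cyp2c54 did not pass (1.97, edgeR adjusted p = 0.0577). In CM vs CV 1 of the 13, Cyp2c29, rose (1.45, edgeR adjusted p = 0.00756), beside 0.0929% of all genes called. Whether Cyp2c70 differs in response from its relatives was not tested. Of 12 pericentral hepatocyte genes, the zone where Cyp7a1 is known to be expressed, 10 fell with EE, beside 24.9% of all genes, among them Cyp2e1 (-3.84) and Gulo (-2.15), and 3 rose in EM vs EV, beside 1.51% of all genes, Gulo (0.84), Cyp2e1 (1.21) and Glul (0.60), of which Gulo alone still passed with library totals.

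The genes nearest to each hydroxylase in pattern were found by the root mean square difference of log2 CPM over the 16 libraries, after each gene was centred on its own mean, among 11036 candidates. Nearest to Cyp7a1 were Upp2, a uridine phosphorylase, at 0.822, the carboxylesterase Ces3b at 0.870 and the transcription factor Onecut1 at 0.883. Upp2 stood at 345 to 520 CPM in CV, 132 to 557 in CM, 24.1 to 62.7 in EV and 51.2 to 111 in EM. Nearest to Cyp8b1 were the organic anion carrier Slc22a7 (0.662), the carbonic anhydrase Car3 (0.761) and Cyp2c54 (0.813). Car3 stood at 1130 ± 430 CPM in CV, 15 ± 15 in EV and 93.6 ± 30 in EM (SD, n = 4).

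Cyp27a1 and Cyp2c70 had much closer neighbours. Tm2d2 (0.093), Sdhb, a subunit of succinate dehydrogenase (0.124), and Tmem14c, a mitochondrial membrane protein (0.126), were nearest to Cyp27a1. Sdhb stood at 227 ± 22 CPM in CV, 193 ± 39 in CM, 124 ± 8.2 in EV and 153 ± 14 in EM (SD, n = 4). Fbxl15 (0.163), Mpv17l2 (0.179) and the enoyl-CoA reductase Tecr (0.187) were nearest to Cyp2c70. Many genes change by a small amount with EE, so a small distance is easier to reach for a gene of small range such as Cyp27a1 than for Cyp8b1.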

How the data were processed

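Per the labels' protocols, liver RNA was extracted with TRIzol and poly(A) RNA was sequenced (NEBNext Ultra kit). The submitters' processing notes name GRCm39, STAR and Salmon without versions. For annotation, counting step and strand the labels give nothing. The authors deposited estimated counts (whole numbers, 13006 genes, 16 libraries), which appear rescaled by gene length: among genes at 0 in some library, the median smallest nonzero value was 101.5 below 150 bp of exon and 1 above 4000 bp. Symbols and exon lengths came from GENCODE M21, on an earlier build, and matched 12692 identifiers, so no gene coordinates are given.

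Groups and replicate numbers came from the titles. Counts were filtered with filterByExpr (12918 genes left) and scaled with TMM. The quasi-likelihood fit used glmQLFit of edgeR 4.0.16 (robust; R 4.3.3) over all libraries with a coefficient for each group, leaving 12 residual degrees of freedom. Adjusted p-values are Benjamini-Hochberg over all genes tested, with a threshold of 0.05, and SE is the fold change divided by the root of the test statistic. Pairs of members were compared by exact permutation of log2 CPM differences (prior count 2, scipy 1.17.1). The members, the 15 gene lists and the tests were chosen with earlier results of these data known. Named genes are the members, the 3 nearest patterns per member, and up to 4 genes per list by p in each comparison. Nr1h3, Foxo1, Nr0b2, Hnf4a, Npas2, Dbp, Ppargc1a, Acox2, Hsd17b4, Acot8, Akr1c14 and the other list genes printed outside that rule were named after their values were seen. Some genes the rule names are not printed. At most 3.24% of genes held equal values in any 2 libraries. Alternatives were RLE factors, library totals, 2 other filters, DESeq2 1.42.0, limma 3.58.1, only the groups compared, the replicate block, each library left out, and CM replicates 2 and 3 left out together, which was added after the data were seen. The test was checked on simulated counts. Of 1.5-fold changes it recovered 19.4% in CM vs CV, 26.9% in EM vs EV and 5.97% in the interaction. Of 4-fold changes it recovered 78.8%, 86.4% and 78.8% in the same order. A gene that did not pass may therefore still have changed. Figures used matplotlib 3.10.9 in Python 3.11.15.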

Additional observations from a re-analysis of the deposited data

Results flagged for a closer look

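In none of the 16 sets of 4 libraries of the sterol hydroxylases did 1 library stand apart from the others by Dixon's criterion at the 95% level. Of 116 sets checked, with the oxysterol hydroxylases, electron donors, nearest patterns and 3 other named genes included, 6 had such a library, and chance gives about 1 in 20. EV replicate 3, the EV library with the most Cyp7a1, was high for Upp2 (62.7 CPM, next 29.3) and for Car3 (37.1 CPM, next 9.42). Both genes entered the check because their patterns over these same libraries lie near Cyp7a1 or Cyp8b1, so these flags are not independent. The others were Cyb5a in CM replicate 4 (2449 CPM, next 2595) and in EV replicate 4 (1267 CPM, next 1125), Cyb5r3 in CV replicate 4 (269 CPM, next 307) and Fbxl15 in CV replicate 3 (6.05 CPM, next 9.78).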

How the results depend on the processing

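The calls of Cyp7a1, Cyp8b1 and Cyp2c70 in EV vs CV, and of Cyp8b1 and Cyp2c70 in EM vs CV, were kept under every alternative run. With library totals Cyp27a1 lost its calls in EV vs CV (-0.30) and EM vs CV (-0.05), and in EM vs CM Cyp7a1 (0.03), Cyp27a1 (0.17) and Cyp2c70 (0.07) changed sign. DESeq2 called Cyp8b1 in EM vs EV (2.23) and Cyp2c70 in the interaction (0.90); the fit of the groups compared called Cyp7a1 in EM vs CV (-1.51). Without CM replicates 2 and 3 together Cyp8b1 passed in EM vs EV (2.25) and changed sign in CM vs CV (-0.16). The cause of these changes was not tested. The counts of genes called in CM vs CV (12), EM vs EV (218) and the interaction (17) were 221, 559 and 450 with DESeq2. They were 127 in EM vs EV and 26 in the interaction with library totals, 30 in the interaction with limma, 2 in CM vs CV with only the groups compared, and 3 and 11 in CM vs CV and the interaction without CM replicates 2 and 3.

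With the replicate number as a block Cyp8b1 passed in EM vs EV (2.17, edgeR adjusted p = 0.0409), 6 genes were called in CM vs CV and 79 in the interaction, and no other call on the 4 genes changed. Of 24 same-numbered pairs, 0 had deviations correlated above 0.1 (-0.0524 to 0.0957). The other pairs ran from -0.146 to 0.0919, so this cut-off does not separate the kinds of pair. Of 16 libraries, 6 were closest to one of their own number. These values do not settle whether the numbers pair the libraries.

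With 1 library left out, the log2 fold changes in CM vs CV ranged from -1.86 to -0.85 for Cyp7a1, from -0.40 to 0.63 for Cyp8b1 and from -0.36 to -0.12 for Cyp27a1. They ranged from 2.02 to 2.53 for Cyp8b1 in EM vs EV, from -0.50 to -0.34 for Cyp27a1 in EM vs CV, and in EM vs CM from -0.67 to 0.35 for Cyp7a1, from -0.31 to -0.07 for Cyp27a1 and from -0.46 to -0.17 for Cyp2c70. The counts of called genes ranged from 4 (without CV replicate 1) to 39 (without CM replicate 4) in CM vs CV, from 36 (without EV replicate 2) to 445 (without EM replicate 1) in EM vs EV, and from 10 (without EV replicate 1 or 2 or EM replicate 4) to 208 (without EM replicate 1) in the interaction. In EM vs EV the relative change ranged from -0.07 to 0.10 for Cyp27a1 minus Cyp2c70 and from 0.00 to 0.75 for Cyp7a1 minus Cyp8b1; with 3 against 4 libraries the exact test cannot pass.

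With library totals 8377 of the 12918 genes were called in EV vs CV, 84.1% of them higher, and 127 in EM vs EV, 59.1% of them higher. The list counts under this setting are to be read beside these shares. Genes then called lower in EV vs CV numbered 4 electron donors, 8 regulators, 1 FXR target and 0 stellate markers. Those called higher numbered 3 ring and side chain genes, 3 regulators, 1 FXR target, 3 LXR targets, 5 clock genes and 10 endothelial markers. In EM vs EV 1 oxysterol hydroxylase was then lower, and 0 ring and side chain genes, 0 electron donors and 1 pericentral gene were higher. With the longest transcript as length, levels were 346, 200 and 257 CPM per kb for Cyp27a1 in CV, EV and EM and 212 for Cyp2c70 in EM. The other list counts, levels and pair differences kept within 1.5 times, 1 SD or the same side of the threshold. The low counts of Cyp8b1 in EV (15 to 38) limit its folds.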
